A study of Mus musculus with 6 samples.

Results

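The 9 genes described here encode phosphatases that remove phosphate groups from inositol lipids or from soluble inositol phosphates. They are Inpp4a and Inpp4b, Inpp5a, Inpp5b, Inpp5d, Inpp5e, Inpp5f and Inpp5k, and Inppl1, and all 9 were found by symbol among the 23337 genes of the deposited count table. Inpp4a was selected on its measured values in these libraries, its counts with the drugs beside those without, so its levels are a description and carry no test. The other 8 were taken from the same name family, with earlier results of these data known. Inpp5j and Inpp1, which share the family name, were not among them and belong to the wider pathway lists below.

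Polyadenylated RNA was sequenced from cultured granulocyte-monocyte progenitors of C57BL6 mouse bone marrow with ER-HOXA9, a fusion of the estrogen receptor to the homeobox factor HOXA9 that keeps such cells immature while estradiol is present. All cultures grew in RPMI with serum, glutamine, stem cell factor and 0.5 µM beta-estradiol, so the fusion was switched on in every group, the controls included. Untreated cells were taken at day 0, vehicle cells after 3 days in DMSO, and drug cells after 3 days in a mixture of 3 agents. These were GSK-LSD1 at 200 nM, which blocks the histone demethylase LSD1, mercaptopurine at 5 µM, a purine analogue, and cerulenin at 5 µM, which blocks fatty acid synthesis. Each group had 2 biological replicates, and the 3 drugs cannot be told apart in these libraries. Drug and day 0 cells differ both in the drugs and in 3 days of culture.

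Phosphoinositides are membrane lipids whose inositol ring carries phosphates at the 3, 4 or 5 position, and each pattern recruits its own set of proteins. Growth factor receptors such as KIT activate phosphoinositide 3-kinases, which make PIP3. The SHIP enzymes, encoded by Inpp5d and Inppl1, remove the 5-phosphate of PIP3 and leave PI(3,4)P2. The 4-phosphatases encoded by Inpp4a and Inpp4b act next on PI(3,4)P2 and leave PI3P, a lipid of endosomes.

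The members fall into 2 kinds of enzyme, and the reading frame around each active site is shown because it sets the 4-phosphatases apart from the 5-phosphatases whose names they share. Inpp4a, Inpp4b and Inpp5f carry a loop that begins with the catalytic cysteine and ends with an arginine. Capitals mark the 7 codons of that loop, with 12 bases of coding sequence on either side, 5′ to 3′ on the coding strand.
Inpp4a: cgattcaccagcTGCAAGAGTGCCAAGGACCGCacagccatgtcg
Inpp4b: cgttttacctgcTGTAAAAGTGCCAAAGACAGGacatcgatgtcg
Inpp5f: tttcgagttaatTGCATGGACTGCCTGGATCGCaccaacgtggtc
These stretches come from GENCODE M21 transcripts on mm10. They lie at chr1:37398790-37398834 in exon 25 of 26 of Inpp4a, at chr8:82071705-82071749 in exon 22 of 23 of Inpp4b and at chr7:128678037-128678081 in exon 12 of 20 of Inpp5f, all on the plus strand. Inpp4a and Inpp4b shared 35 of 45 bases, and Inpp4a and Inpp5f shared 18 of 45.

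The other 6 members are magnesium-dependent 5-phosphatases with no catalytic cysteine. Capitals mark the 6 codons of a signature that begins with proline and ends with aspartate and arginine, again with 12 bases on either side.
Inpp5a: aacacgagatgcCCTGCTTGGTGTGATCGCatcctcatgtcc
Inpp5b: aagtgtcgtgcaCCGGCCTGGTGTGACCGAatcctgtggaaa
Inpp5d: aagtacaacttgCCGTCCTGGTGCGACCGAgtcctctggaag
Inpp5e: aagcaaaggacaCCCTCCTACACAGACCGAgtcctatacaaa
Inpp5k: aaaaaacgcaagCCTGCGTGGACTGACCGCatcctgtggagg
Inppl1: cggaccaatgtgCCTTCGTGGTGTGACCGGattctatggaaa
The Inpp5d stretch lies at chr1:87703121-87703162 on the plus strand, in exon 18 of 27, and the Inppl1 stretch at chr7:101828441-101828482 on the minus strand, in exon 19 of 29. The SHIP pair shared 28 of 42 bases. The Inpp5e stretch is joined across exons 8 and 9 of 10, and the others each lie in 1 exon.

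Libraries held 11305666 to 16948697 counts, of which the ribosomal RNA gene Rn45s took 20.45% and 24.64% at day 0 and 14.62% to 16.12% in the 4 later libraries, so its share moved with both comparisons against day 0. Values below are CPM, counts scaled to a common library size, after TMM scaling, which corrects library totals for differences in composition. The 10 progenitor markers, among them Mpo and Elane, were all present, with a summed level of 7596 to 7919 CPM at day 0, 8564 to 8815 in vehicle cells and 10601 to 11154 in drug cells. None of 6 T and NK cell markers passed the filter on low counts and 4 of them were at 0. Macrophage markers summed to 25.6 to 29.5 CPM at day 0, 18.1 to 21.3 in vehicle cells and 67.1 to 68.7 in drug cells, with 1 of 5 past the filter (Adgre1) and C1qa and C1qc at 0. Mast cell and basophil markers summed to 902 to 1088 CPM at day 0, 478 to 495 in vehicle cells and 1125 to 1212 in drug cells, with 2 of 5 past the filter and Fcer1a at 0. Of those 2, Cpa3 was called higher and Mcpt8 lower in drugs against vehicle. Of the 10 progenitor markers 4 were called higher and 2 lower in that comparison, beside 18.1% and 13.8% of all tested genes. Erythroid and megakaryocyte markers, 3 of 7 past the filter and Hba-a1 at 0, summed to 33.5 to 45.0 CPM at day 0 and 14.5 to 21.2 later. Stromal markers, 2 of 5 past the filter and Cdh5 at 0, summed to 217 to 226 CPM at day 0, 171 to 176 in vehicle and 242 to 243 with the drugs. B cell markers summed to 11.8 to 16.0 CPM in the 6 libraries, with 2 of 5 past the filter. The part of these shifts in the results below was not tested, and in bulk RNA fewer cells of a type cannot be told apart from less RNA per cell.

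Inpp4a, the 4-phosphatase at chr1:37299893-37410735 on the plus strand, was near the bottom of the family in untreated and vehicle cells and high with the drugs. Its counts were 83 and 61 at day 0, 70 and 70 in vehicle cells, and 1320 and 1596 in drug cells. In CPM these were 4.97 and 5.07, 5.53 and 5.85, and 106 and 103. The 2 drug libraries stood far above the other 4, and replicates lay close together within each group. The means were 5.02 ± 0.074 CPM at day 0, 5.69 ± 0.23 in vehicle cells and 104 ± 1.9 in drug cells (SD, n = 2 each).

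The drug mean was 18.3-fold the vehicle mean, a log2 difference of 4.19, and 20.8-fold the day 0 mean, a log2 difference of 4.38. Vehicle exceeded day 0 by 0.18 on the log2 scale, and by 0.30 with plain library totals in place of TMM. Ordered by size of increase, Inpp4a was number 47 of the 11283 genes tested in drugs against vehicle, number 41 in drugs against day 0 and number 2025 in vehicle against day 0. These comparisons share libraries, so the first pair are not separate observations.

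**Figure D1:**
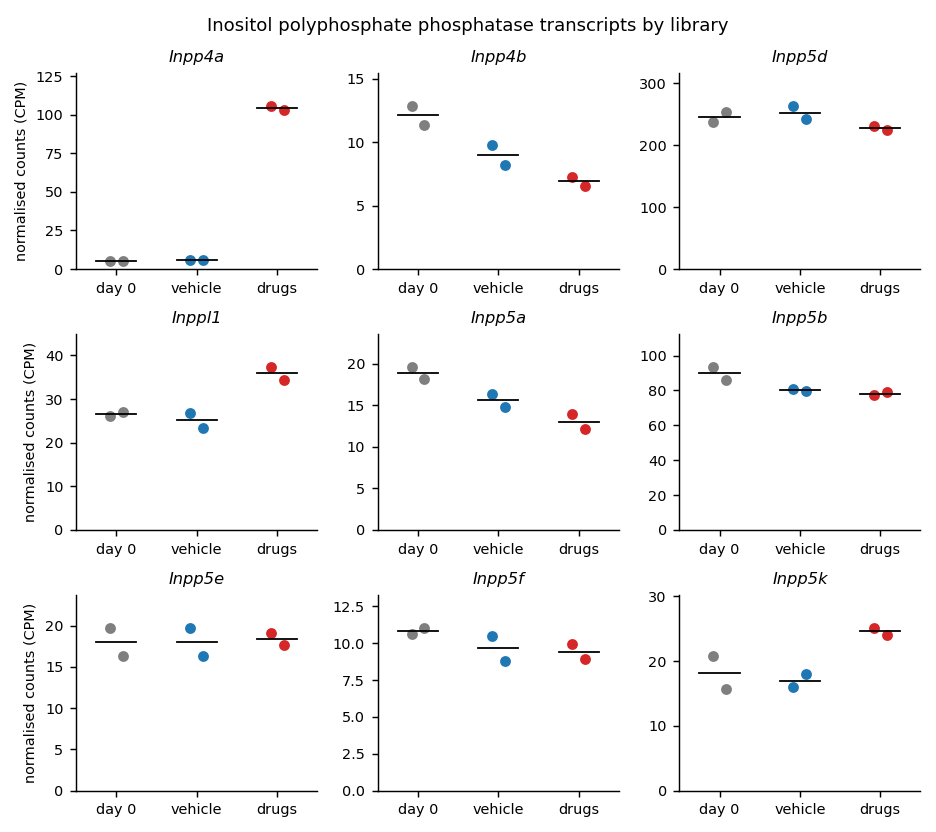
TMM-scaled CPM (vertical axes, linear, from 0, each gene on its own scale) of the 9 members in untreated day 0 cells (grey), vehicle (blue) and drugs (red), with 1 point per library and a black line at the mean of 2. Inpp4a stands at 106 and 103 CPM in the drug libraries against 4.97 to 5.85 in the others, and the groups of the other members lie much closer to each other.

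The bases upstream of the first Inpp4a start are shown because its difference between groups was the largest of the 9. The 250 bases lie at chr1:37299588-37299837 on the plus strand (RefSeq, GRCm38.p6, the mm10 assembly). Capitals mark matches to 2 searched motifs.
Inpp4a upstream: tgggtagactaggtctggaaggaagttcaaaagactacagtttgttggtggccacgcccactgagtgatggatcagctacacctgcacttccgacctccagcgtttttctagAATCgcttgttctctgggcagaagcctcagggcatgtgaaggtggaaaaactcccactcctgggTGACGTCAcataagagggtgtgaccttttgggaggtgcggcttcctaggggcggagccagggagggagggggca
The first capitals are AATC, the core bound by GFI1, a repressor that works with LSD1 in myeloid cells, and 69.0% of 32851 windows of this length held it on either strand. The second are the cAMP response element TGACGTCA, held by 1.55% of windows and searched only after the sequence had been read. The window had no match on either strand to the longer GFI1 form AAATCAC (2.75% of windows), the PU.1 motif GAGGAAGT (2.44%) or the C/EBP motif TTGCNNAA (9.56%). RefSeq lists 3 Inpp4a starts, and counts per gene do not tell which was used. The second window overlaps the first and holds the same 2 matches, whereas the third, which begins at chr1:37368967 inside the gene, holds none of the 5 motifs.

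The 5 genes ranked closest to Inpp4a by their pattern over the 6 libraries were Mmp12, Arhgap24, Tlr8, Disp2 and Dock4. The ranking took genes past the filter on low counts and left out the members and genes with Gm, Rik, LOC or date-like names. Closeness was the Euclidean distance between mean-centred log2(CPM + 0.5) values, and it ran from 0.333 for Mmp12 to 0.693 for Dock4. Mmp12, a macrophage elastase, had 41.9 and 34.1 CPM at day 0, 40.2 and 42.8 in vehicle cells, and 632 and 777 in drug cells. Tlr8, an endosomal receptor for RNA, had 0 counts in the 4 libraries without drugs and 85 and 105 counts with them. Arhgap24, a GTPase-activating protein for Rac, had 2 to 6 counts without the drugs and 164 and 218 with them. Of the 5, Mmp12 was the one with at least 410 counts in every library. In Tlr8 and Arhgap24 the 0.5 added before the log sets much of the low end. It also weighs on Disp2 (10 to 23 counts without the drugs) and Dock4 (7 to 19 counts without the drugs).

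**Figure D2:**
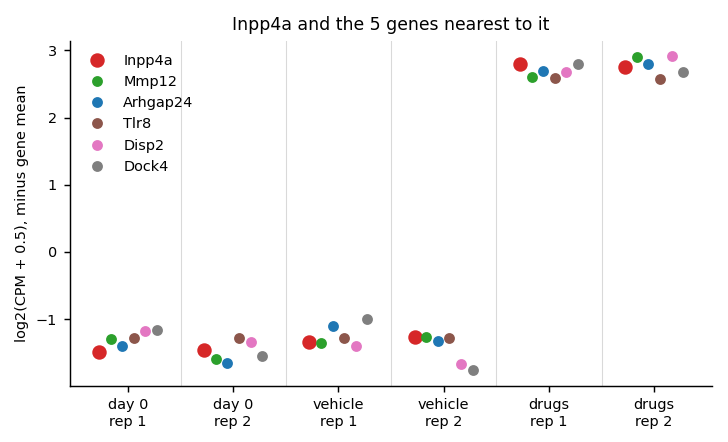
Log2(CPM + 0.5) minus each gene's mean over the libraries (vertical axis) in the 6 libraries (horizontal axis) for Inpp4a (large red points) and the 5 genes closest to it (small points). All 6 genes are low in the 4 day 0 and vehicle libraries and high in the 2 drug libraries, which is what the closeness measure selects. Members and genes with Gm, Rik, LOC or date-like names were not ranked.

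Inpp4b, the other 4-phosphatase, at chr8:81715200-82122561 on the plus strand, was lower with the drugs than at day 0. It had 12.9 and 11.4 CPM at day 0, 9.80 and 8.19 in vehicle cells, and 7.29 and 6.58 in drug cells. The 3 groups did not overlap, with day 0 highest and the drugs lowest. Against day 0 the drug libraries fell by 0.82 on the log2 scale (SE 0.15, adjusted p = 0.000759). Each p here is from the quasi-likelihood F test of edgeR, adjusted by Benjamini-Hochberg over the 11283 genes past the filter, unless DESeq2 or another setting is named. The separate steps did not pass the threshold of 0.05. Vehicle against day 0 gave -0.44 (SE 0.14, adjusted p = 0.0865) and drugs against vehicle gave -0.38 (SE 0.16, adjusted p = 0.0843). The vehicle step was called without day 0 replicate 2 (adjusted p = 0.0375) and with no filter on low counts (0.0405).

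The balance of the 4-phosphatases per exon length differed widely between groups. Per length, Inpp4a stood at 0.233 and 0.269 of Inpp4b at day 0 and at 0.341 and 0.432 with vehicle. With the drugs it stood at 8.77 and 9.46 times Inpp4b. Inpp4a made up 20.1% ± 1.6 of the summed 4-phosphatase level at day 0, 27.8% ± 3.3 in vehicle cells and 90.1% ± 0.48 in drug cells (SD, n = 2 each). This shift rests mostly on the values for which Inpp4a was chosen and carries no test.

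Of the SHIP enzymes, Inppl1 (SHIP2) rose with the drugs, and Inpp5d (SHIP1) did not pass the test in any comparison. Inpp5d, the form known from blood cells, lies at chr1:87620312-87720508 on the plus strand. It had 238 and 254 CPM at day 0, 263 and 241 in vehicle cells, and 230.4 and 225 in drug cells. The drug libraries lay below the vehicle libraries, and day 0 and vehicle overlapped. Drugs against vehicle gave a log2 difference of -0.15 (95% interval -0.31 to 0.014, adjusted p = 0.153), and this was called lower with plain library totals in place of TMM (adjusted p = 0.0393). Drugs against day 0 gave -0.11 (adjusted p = 0.249).

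Inppl1, the more widely expressed SHIP gene, lies at chr7:101822632-101838226 on the minus strand. It had 26.1 and 26.9 CPM at day 0, 26.9 and 23.3 in vehicle cells, and 37.4 and 34.5 in drug cells. Both drug libraries exceeded the other 4, and day 0 and vehicle overlapped. It rose by 0.51 on the log2 scale against vehicle (SE 0.098, 95% interval 0.30 to 0.73, adjusted p = 0.0016) and by 0.44 against day 0 (SE 0.096, adjusted p = 0.00288). Both calls were made under all 12 alternative settings. Vehicle against day 0 gave -0.08 (adjusted p = 0.667).

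Inpp5k rose with the drugs. It encodes SKIP, a 5-phosphatase of the endoplasmic reticulum known for restraining insulin signalling, and lies at chr11:75631020-75648865 on the plus strand. Its levels were 20.7 and 15.7 CPM at day 0, 16.0 and 18.0 in vehicle cells, and 25.2 and 24.1 in drug cells. The drug libraries were the highest 2, and the day 0 libraries spanned the vehicle values. The log2 rise was 0.54 against vehicle (SE 0.13, adjusted p = 0.00782) and 0.42 against day 0 (SE 0.13, adjusted p = 0.0183). The first was lost without vehicle replicate 1 (adjusted p = 0.0578) or drug replicate 1 (0.0611). The second was lost with DESeq2 (0.062) and without day 0 replicate 2 (0.121), drug replicate 1 (0.104) or drug replicate 2 (0.0669). Its size also rested on the day 0 libraries, at 0.24 without day 0 replicate 2 and 0.64 without day 0 replicate 1.

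Inpp5a and Inpp5b were lower with the drugs than at day 0. Inpp5a, at chr7:139389109-139579652 on the plus strand, encodes the enzyme that ends the calcium signal of soluble inositol trisphosphate rather than acting mainly on lipids. It had 19.6 and 18.2 CPM at day 0, 16.4 and 14.8 in vehicle cells, and 13.9 and 12.1 in drug cells, with no overlap between groups. It fell by 0.55 on the log2 scale between day 0 and the drugs (SE 0.12, adjusted p = 0.00277), which was lost when drug replicate 2 was left out (0.0522). Drugs against vehicle gave -0.26 (adjusted p = 0.128) and vehicle against day 0 gave -0.28 (adjusted p = 0.164).

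Inpp5b, a relative of the Lowe syndrome gene Ocrl that acts on PI(4,5)P2, lies at chr4:124741878-124801511 on the plus strand. It had 93.6 and 85.9 CPM at day 0, 81.0 and 79.9 in vehicle cells, and 77.2 and 78.9 in drug cells. The 3 groups did not overlap, with day 0 highest. Its fall of 0.20 on the log2 scale between day 0 and the drugs (SE 0.070, adjusted p = 0.0309) was lost in 6 of the 12 alternative settings, among them library totals (0.285, log2 -0.11), DESeq2 (0.139) and leaving out day 0 replicate 1 (0.188), drug replicate 1 (0.206) or drug replicate 2 (0.124). Drugs against vehicle gave -0.04 (95% interval -0.20 to 0.11, adjusted p = 0.676). Vehicle against day 0 gave -0.16 (95% interval -0.31 to -0.0081, adjusted p = 0.178).

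Inpp5e and Inpp5f passed the test in none of the 3 comparisons. Inpp5e, whose product works in the primary cilium, lies at chr2:26396249-26409188 on the minus strand and had 16.3 to 19.8 CPM over all 6 libraries, with all groups overlapping. Its log2 difference between drugs and vehicle was 0.02 (95% interval -0.26 to 0.30). It shares 873 exon bases with Pmpca on the opposite strand, which held 8973 counts, and whether reads were counted by strand is not stated, which leaves its level uncertain. Inpp5f, at chr7:128611365-128696436 on the plus strand, encodes a Sac domain enzyme that removes the 4-phosphate of PI4P despite its name. It had 8.78 to 11.1 CPM in the 6 libraries, with day 0 highest and the other groups overlapping, and drugs against vehicle gave -0.04 (95% interval -0.36 to 0.27). These intervals leave room for changes of either sign.

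All 9 members passed the filter on low counts. Of the 8 tested in drugs against vehicle, 2 rose (Inpp5k and Inppl1) and 0 fell, where 18.1% of all tested genes rose and 13.8% fell. An unadjusted p under 0.05 was reached by 2 rising members and 1 falling member, and DESeq2 called 2 higher and 0 lower. The median log2 difference of the 8 was -0.04, against 0.00075 over all tested genes. The count was 1 without vehicle replicate 1 or drug replicate 1. Over all genes, 3601 calls became 1833 without drug replicate 1 and 2056 without drug replicate 2. With plain library totals the part of all calls that were higher went from 56.7% to 49.2%.

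In drugs against day 0, 2 of the 8 rose (Inpp5k and Inppl1) and 3 fell (Inpp4b, Inpp5a and Inpp5b), where 22.7% of all tested genes rose and 21.2% fell. The median log2 difference of the 8 was -0.16, against -0.0075 over all tested genes. The count was 3 with DESeq2 or without drug replicate 1 and 2 without drug replicate 2. In vehicle against day 0, 0 of the 8 rose and 0 fell, where 3.75% of all tested genes rose and 3.99% fell, and the median of the 8 was -0.14, against -0.017. There edgeR gave an unadjusted p under 0.05 for 3 members, all lower, and DESeq2 called 0. Inpp4b was called without day 0 replicate 2. Over all genes, the 873 calls in vehicle against day 0 became 359 without day 0 replicate 1, 2012 without day 0 replicate 2, 351 without vehicle replicate 1, and 530 and 535 without drug replicates 1 and 2. The 4958 calls in drugs against day 0 became 2872 and 3279 without drug replicates 1 and 2. Plain library totals changed the balance of all calls in these 2 comparisons, from 48.5% to 89.0% higher in vehicle against day 0 and from 51.7% to 70.4% higher in drugs against day 0. They moved the median log2 difference over all genes from -0.017 to 0.104 and from -0.0075 to 0.083.

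**Figure D3:**
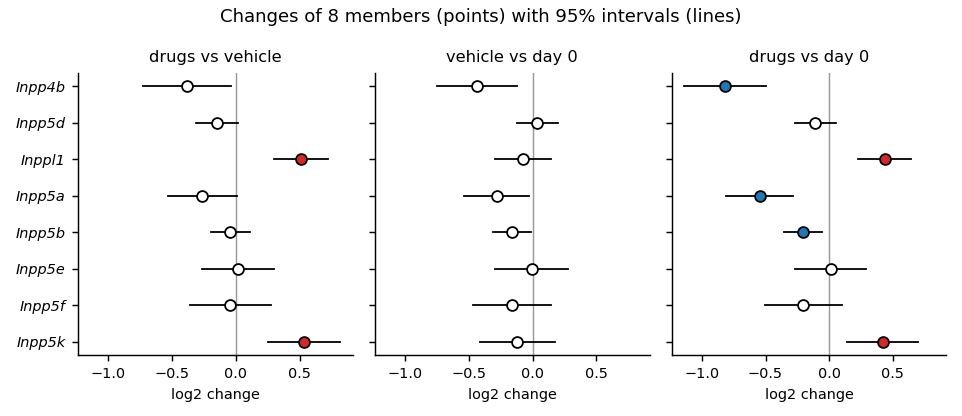
Log2 changes (horizontal axes) of the 8 tested members in each of the 3 comparisons, with 95% intervals as lines. Red points were called higher, blue points lower and white points not called. Inppl1 and Inpp5k are higher in both comparisons with the drugs, Inpp4b, Inpp5a and Inpp5b are lower in drugs against day 0, and no member is called in vehicle against day 0.

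Levels of different genes were compared per kilobase of exon (RPKM from TMM-scaled counts). Inpp5d was the highest member in all 6 libraries, at 49.8 RPKM at day 0, 51.1 in vehicle cells and 46.1 in drug cells, and Inpp5b came next at 23.7, 21.3 and 20.6. Inpp4a was the lowest of the 9 in the 4 libraries without drugs, at 0.736 RPKM at day 0 and 0.835 with vehicle. With the drugs it came after these at 15.3 RPKM, above Inpp5k at 9.32, and Inpp4b was the lowest at 1.68.

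Some neighbours in this order did not differ beyond their replicates. Inpp5k and Inpp5a overlapped at day 0. Inpp5a overlapped Inppl1, Inppl1 overlapped Inpp5e, and Inpp4b overlapped Inpp5f with vehicle. With the drugs only the neighbours Inpp5a and Inpp5e overlapped. Inpp5d, Inpp5b and Inpp4a kept clear of their neighbours in every group.

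The summed level of the 9 genes was 103 ± 1.4 RPKM at day 0, 98.6 ± 4.8 in vehicle cells and 111 ± 2.4 in drug cells (SD, n = 2 each). Under library totals the order of day 0 and vehicle turned round, with 97.6 RPKM at day 0, 102 in vehicle and 113 in drug libraries. Inpp4a contributed 0.717% ± 0.020 of it at day 0, 0.849% ± 0.075 in vehicle cells and 13.8% ± 0.049 in drug cells. Inpp5d contributed 48.5% ± 2.9, 51.8% ± 0.67 and 41.5% ± 0.19. The higher sum with the drugs held a larger Inpp4a part and a smaller SHIP1 part. Between vehicle and drugs Inpp4a went from 0.835 to 15.3 RPKM, and Inpp5d from 51.1 to 46.1 RPKM. With TMM scaling Inpp4a gained more RPKM than the sum did, so the other members together did not rise. A higher Inpp4a level by itself lowers the share of every other member. The sum and these shares thus depend on the values for which Inpp4a was chosen and carry no test.

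**Figure D4:**
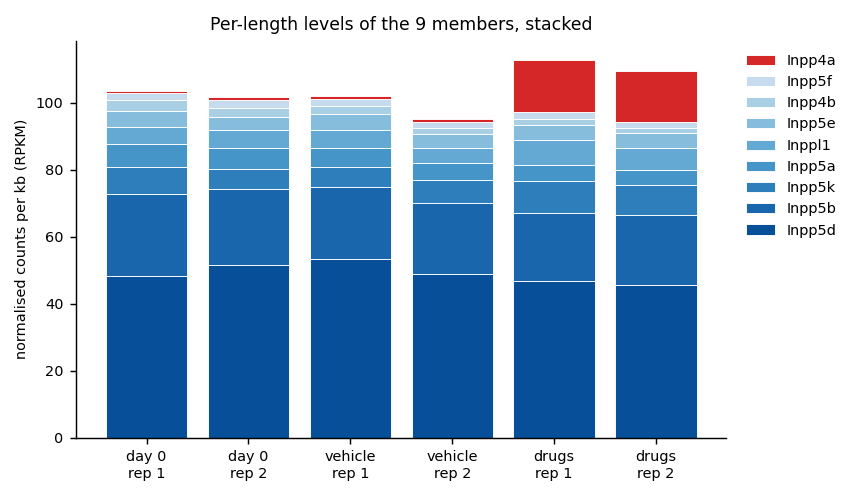
Normalised counts per kilobase (RPKM, vertical axis from 0) of the 9 members stacked for each of the 6 libraries. The red Inpp4a segment is barely visible at day 0 and with vehicle and makes up 13.7% and 13.8% of the 2 drug bars, above a blue stack in which Inpp5d and Inpp5b are the largest segments throughout.

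The wider pathway was described with 7 lists of 104 distinct genes, of which 92 were tested. In drugs against vehicle 16 rose and 15 fell, with a median log2 difference of -0.0027, against 18.1% rising and 13.8% falling among all tested genes. Of these 31 calls, 12 were made in all 12 alternative settings (Cd2ap, Dok2, Fcgr2b, Itpr2, Itpr3, Pi4k2a, Pik3r2, Pip5k1b, Plcg2, Plekha1, Prex1 and Raph1), and the other 19 were lost in at least 1. The total was 20 without vehicle replicate 1, 14 without drug replicate 1 and 17 without drug replicate 2. Under library totals 14 rose and 19 fell. In drugs against day 0, 26 rose and 18 fell, beside 22.7% and 21.2% of all tested genes. This total of 44 was 24 without drug replicate 1 and 27 without drug replicate 2, and under library totals 35 rose and 10 fell. In vehicle against day 0, 4 rose and 2 fell, beside 3.75% and 3.99% of all tested genes. That total of 6 was 12 without day 0 replicate 2, 1 without day 0 replicate 1, 2 without vehicle replicate 1, 3 without either drug replicate and 23 under library totals, where 22 rose and 1 fell.

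Among other phosphoinositide phosphatases, 4 of 16 tested rose with the drugs against vehicle, among them Inpp5j, Tmem55b and Mtmr3, and 1 fell (Fig4), with a median of 0.07. Of all tested genes, 18.1% rose and 13.8% fell in this comparison. Inpp5j, a 5-phosphatase known as PIPP, had 4.27 CPM in vehicle cells and 6.90 in drug cells, a log2 rise of 0.68 (SE 0.18, adjusted p = 0.0129) that was lost with DESeq2 (0.112) and without either vehicle replicate (0.0602 and 0.0571) or drug replicate 1 (0.139). Ocrl gave 0.06 (adjusted p = 0.554) and Synj1, a synaptojanin, gave -0.02 (adjusted p = 0.887). Of the 4 tested myotubularin pseudophosphatases, which lack activity and bind active partners, Sbf1 and Mtmr9 fell against vehicle.

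In the list of phosphoinositide 3-kinases and associated proteins, 2 of 14 tested genes rose against vehicle (Pik3cb and Pik3r6) and 2 fell (Pik3r1 and Pik3r2). The median was 0.06, and 18.1% of all tested genes rose and 13.8% fell. Pik3r2, a regulatory subunit, fell from 58.7 ± 0.95 to 40.9 ± 2.5 CPM, by 0.52 on the log2 scale (SE 0.079, adjusted p = 0.000277). The catalytic subunits typical of white blood cells gave 0.01 (Pik3cd, adjusted p = 0.907) and 0.08 (Pik3cg, adjusted p = 0.485). Pik3cd rose by 0.26 between day 0 and vehicle (adjusted p = 0.032), which was lost in 8 of 12 alternative settings. A further 12 genes were listed for the kinases of the 4 and 5 positions and associated proteins. In drugs against vehicle 2 rose (Pi4k2a and Pip5k1b) and 2 fell (Pi4k2b and Pip4k2b), beside 18.1% and 13.8% of all tested genes. Both falls were lost with DESeq2 (adjusted p = 0.0525 for Pi4k2b and 0.0604 for Pip4k2b). Pi4k2a, which makes PI4P on endosomes, rose from 37.4 ± 3.6 CPM with vehicle to 72.5 ± 0.70, by 0.95 on the log2 scale (SE 0.083, adjusted p = 2.06e-06).

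Genes for proteins that bind PIP3 or PI(3,4)P2, the substrate of Inpp4a, were called in both directions against vehicle. Of 21 tested, 4 rose (Plekha1, Gab2, Prex1 and Raph1) and 4 fell (Akt2, Btk, Tec and Adap1), with a median of -0.08. The shares over all tested genes were 18.1% rising and 13.8% falling. Plekha1, or TAPP1, an adaptor that prefers PI(3,4)P2, rose from 15.2 ± 0.78 CPM with vehicle to 30.9 ± 3.4, by 1.02 on the log2 scale (SE 0.14, adjusted p = 0.000153). Raph1, or lamellipodin, which binds PI(3,4)P2 at the leading edge, rose from 32.5 ± 4.6 CPM with vehicle to 57.1 ± 3.7, by 0.81 on the log2 scale (SE 0.11, adjusted p = 0.000106). Akt1, the kinase recruited by both lipids, gave -0.17 (adjusted p = 0.0766). Tec, a tyrosine kinase with a PIP3-binding domain, had already fallen between day 0 and vehicle, from 103 ± 1.3 to 77.5 ± 1.7 CPM (log2 -0.42, SE 0.068, adjusted p = 0.00278).

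Among 12 partners of the SHIP enzymes, 2 rose against vehicle (Fcgr2b and Cd2ap) and 2 fell (Dok2 and Grb2), with a median of -0.03. Over all tested genes 18.1% rose and 13.8% fell. Fcgr2b, the inhibitory IgG receptor that recruits SHIP1, rose from 59.6 ± 8.9 CPM with vehicle to 151 ± 3.3, by 1.34 on the log2 scale (SE 0.11, adjusted p = 8.17e-07). Cd2ap, an adaptor, rose from 61.9 ± 3.3 CPM with vehicle to 126 ± 8.1, by 1.03 on the log2 scale (SE 0.075, adjusted p = 3.94e-07). Dok2, an adaptor of myeloid receptors, fell from 11.9 ± 1.6 CPM with vehicle to 3.73 ± 0.16, by 1.67 on the log2 scale (SE 0.21, adjusted p = 5.61e-05).

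Inpp5a works in the inositol phosphate pathway, and of 13 tested genes of that list 2 rose (Itpr2 and Itpr3) and 2 fell (Plcg2 and Impa1) against vehicle. Here too 18.1% of all tested genes rose and 13.8% fell. Itpr3, a calcium channel opened by inositol trisphosphate, rose from 43.6 ± 3.3 CPM with vehicle to 107 ± 3.1, by 1.29 on the log2 scale (SE 0.078, adjusted p = 6.22e-08). Its relative Itpr2 rose from 32.5 ± 1.5 CPM with vehicle to 52.9 ± 2.8, by 0.70 on the log2 scale (SE 0.083, adjusted p = 3.49e-05). Both calls and that of Plcg2 were made in all 12 alternative settings, whereas that of Impa1 (adjusted p = 0.0427) was lost in 7.

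**Figure D5:**
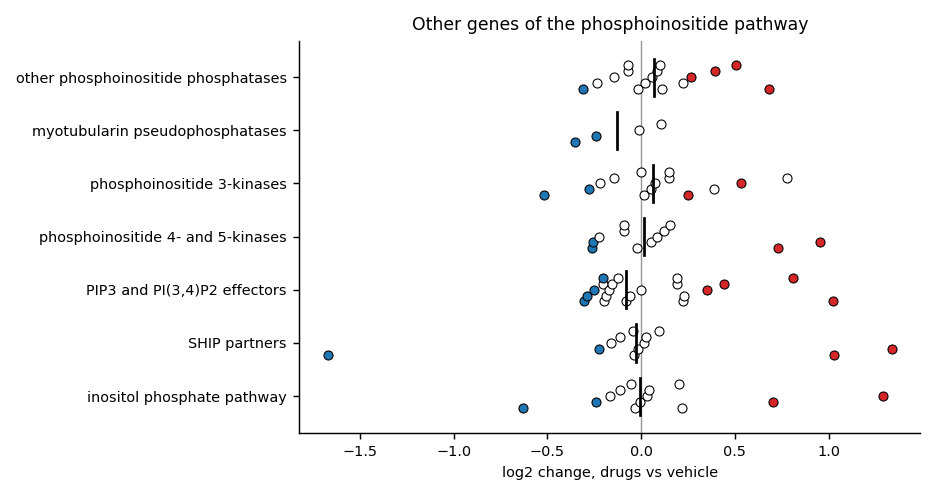
Log2 changes of drugs against vehicle (horizontal axis) for the tested genes of the 7 pathway lists, 1 point per gene and a black bar at each list's median. Red points were called higher, blue points lower and white points not called. Each list's median lies between -0.13 and 0.07, and the points farthest from 0 are Dok2 on the left and Fcgr2b and Itpr3 on the right.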

How the data were processed

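Polyadenylated RNA of 6 cultures was measured. The authors deposited raw read counts for each gene, with exon lengths in base pairs and mm10 positions, per the file headers. Alignment used STAR 2.7.0f to mm10, and deepTools 3.0.2 is also named, per the submitters' processing notes. Whether counting used strand or reads matching several places, and which annotation, is not given in the sources used.

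Low-count genes were removed with filterByExpr, leaving 11283. Counts were scaled with TMM and fitted in 1 model of all 6 libraries in edgeR 4.0.16 under R 4.3.3, with 3 residual degrees of freedom. The 3 comparisons used the quasi-likelihood F test, adjusted p-values (Benjamini-Hochberg over those genes) and a 0.05 threshold. The fit was tested on simulated data. DESeq2 1.42.0, library totals, no filter, only the groups compared, a replicate block, leaving out each library and leaving out Rn45s were alternatives.

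The members and gene lists were chosen with earlier results of these data known. Of 157 list entries 156 matched, 4 by an older symbol. Named genes are the members, the 5 closest to Inpp4a, up to 4 called genes of each pathway list in drugs against vehicle (smallest p, largest change) and up to 2 in each other comparison, and 7 key genes. Other called genes of short counts, Rn45s and the genes flanking Inpp4a were named after their values were seen. Some values of the pathway lists are not reported here. Active-site stretches were read from GENCODE M21 transcripts.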

Additional observations from a re-analysis of the deposited data

How the results depend on the processing

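Inpp4a with the drugs stood between 4.15 and 4.22 (log2) above vehicle over 12 alternative settings, and between 4.36 and 4.47 above day 0. Its level in vehicle stood between 0.16 and 0.30 above day 0, with the largest value under library totals. Genes called in drugs against vehicle numbered 3601, with 2321 by DESeq2 and 1833 to 4191 with 1 library left out, and in drugs against day 0 4958, with 2872 to 5142. In vehicle against day 0 873 were called, with 1957 under library totals, 461 by DESeq2, 1664 with no filter, 527 from the 2 groups alone and 351 to 2012 with 1 library left out. Members called were 2, 0 and 5 in drugs against vehicle, vehicle against day 0 and drugs against day 0. With 1 library left out they were 1 to 2, 0 to 1 and 2 to 5, with no filter 1 in the second, and by DESeq2 3 in the third. Pathway genes called were 31, 6 and 44. DESeq2 gave 19 in the first and 3 in the second, library totals 23 and the 2 groups alone 3 in the second, and leaving out 1 library gave 14 to 36, 1 to 12 and 24 to 45. The summed member level at day 0 was 97.6 RPKM under library totals against 103, and in vehicle 102 against 98.6, which turned their order round. No direction reversed among called values, and the cause of these shifts was not tested. A fit with 1 library left out also has fewer degrees of freedom.

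The labels do not say that replicate numbers pair cultures, and deviations of same-numbered libraries correlated at 0.112 (drugs and vehicle), -0.281 (vehicle and day 0) and -0.0725 (drugs and day 0). With a replicate block, genes called were 2958, 483 and 4327, members called 2, 0 and 4 (Inpp5b lost, adjusted p = 0.0604), and pathway genes in vehicle against day 0 3. With the day 0 numbers swapped, chosen after seeing the data, vehicle against day 0 gave 2380 genes, 1 member (Inpp4b) and 17 pathway genes. Replicate spread was unequal between groups. With Rn45s left out, chi-square per degree of freedom between replicate counts was 7.91 at day 0, 4.92 in vehicle and 1.86 with the drugs. The fit used a spread shared by all groups, so the SEs do not show this difference. With 2 libraries a group, small changes of low genes such as Inpp4b and Inpp5f are poorly resolved.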

Other observations

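The genes that flank Inpp4a on chromosome 1 were looked at after its values were known. The nearest downstream gene, 6330578E17Rik, lies on the opposite strand with its nearer edge, the 3′ end, 6350 bases beyond Inpp4a, and fell from 122 CPM with vehicle to 90.0 with the drugs, by 0.44 on the log2 scale (SE 0.069, adjusted p = 0.000348, edgeR). Unc50, 19437 bases away, had 19.5 and 20.3 CPM (log2 0.06, adjusted p = 0.740). Mgat4a, a glycosyltransferase 28605 bases away, rose from 56.4 to 74.3 CPM (log2 0.40, SE 0.089, adjusted p = 0.00453). Cnga3, 36509 bases upstream, was at 0 counts in all 6 libraries.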
